A study of Mus musculus with 44 samples.

Results

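The ephrin ligand genes are the 8 mouse genes Efna1, Efna2, Efna3, Efna4, Efna5, Efnb1, Efnb2 and Efnb3. They were taken by symbol from a table of 55335 genes, and each symbol matched 1 row through the GENCODE annotation of GRCm38. The family was singled out because Efna5 and Efnb2 were lower after early-life exercise (ELE) in 1 of the comparisons made with these libraries, so for Efna5 and Efnb2 every comparison that uses those libraries is given as a description. Where either is written as called there, it met the thresholds of the study, which is no test of it.

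RNA bound to tagged ribosomes was purified from the hippocampus (translating ribosome affinity purification, TRAP) and sequenced in 20 libraries, each from 1 male Emx1-NuTRAP mouse. In all of these mice, exercised and sedentary alike, Cre recombinase from the Emx1 locus switches on the NuTRAP cassette, which labels ribosomes and nuclei, mostly in excitatory neurons, though Emx1-Cre also acts in neural progenitor cells. ELE mice were housed with a running wheel from postnatal day 21 to 41 and sedentary mice without one, and tissue was taken the day after the wheel period. In simultaneous INTACT and TRAP (SIT), both hippocampi of a mouse were combined and nuclei and RNA came from the same tube, in 4 ELE and 4 sedentary mice. In separate isolations 1 hippocampus of each mouse went to TRAP, the left in 3 ELE and 3 sedentary mice and the right in 3 ELE and 3 sedentary mice. The study compared 3 ELE with 2 sedentary SIT libraries and set aside those of NT6.304 (ELE) and of NT7.2.3 with NT7.2.4 (both sedentary), leaving 17 libraries, and for the SIT comparison the values with all 8 libraries are also given.

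Ephrins are ligands that stay on the cell that makes them. A-type ephrins are held in the membrane by a lipid anchor and B-type ephrins cross it, and both bind Eph receptor tyrosine kinases on the neighboring cell, so that signals can pass into either cell. In the brain this contact signaling is known for steering axons to their targets, for sorting cells at boundaries and, in the hippocampus, for shaping dendritic spines and synaptic plasticity.

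Libraries held 45895097 to 65767802 counts, with a median of 54422374.5. In the 17 libraries, Slc17a7, the vesicular glutamate transporter of excitatory neurons, stood at 3049 to 4383 CPM (counts scaled to the size of the library) and Emx1 at 16.8 to 25.4 CPM. The summed level of 5 inhibitory neuron markers was 40.5 to 75.0 CPM in the same libraries, of 5 microglial markers 2.35 to 6.11 CPM and of 5 endothelial markers 1.17 to 26.04 CPM. Astrocyte markers summed to 1682 to 5123 CPM and oligodendrocyte markers to 2198 to 3624 CPM, so RNA of glial genes was present throughout. The libraries of NT7.2.3 and NT7.2.4 stood apart, with 8.64% and 9.64% of counts on mitochondrial genes against 0.0704% to 0.523% in the other 18, and with inhibitory neuron markers at 790 and 827 CPM.

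The genes of 3 A-type ligands lie close together. Efna1 (ENSMUSG00000027954.9), Efna3 (ENSMUSG00000028039.11) and Efna4 (ENSMUSG00000028040.7) are on the minus strand of chromosome 3 within 66296 bp, with Efna1 at chr3:89271733-89281142, Efna3 at chr3:89313899-89322965 and Efna4 at chr3:89333390-89338028. Efna3 and Efna4 each overlap a gene on the other strand, Gm15998 and 4731419I09Rik respectively, and the counting used strand. Efna2 (ENSMUSG00000003070.6) is at chr10:80179482-80190010 on the plus strand and Efna5 (ENSMUSG00000048915.12), the longest of the 8 loci, at chr17:62604184-62881317 on the minus strand. Of the B-type genes, Efnb1 (ENSMUSG00000031217.8) is at chrX:99136130-99148991 on the plus strand, Efnb2 (ENSMUSG00000001300.16) at chr8:8617434-8661242 on the minus strand and Efnb3 (ENSMUSG00000003934.5) at chr11:69554092-69560205 on the minus strand. Efnb2 overlaps E230020D15Rik, Gm45073 and Gm45074 on its own strand. They share 0 of its 6855 exonic bases, and their highest counts in a library were 2, 8 and 9.

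The promoters of Efna5 and Efnb2 are shown because the results turn on these 2 genes, whose levels moved together. Each sequence is the 250 bases before the RefSeq start in GRCm38.p6, written 5′ to 3′ on the gene's own strand, for Efna5 chr17:62881318-62881567 and for Efnb2 chr8:8661243-8661492, both minus strand. Capitals mark GC boxes (GGGCGG, or CCGCCC on the other strand) and CCAAT boxes (CCAAT, or ATTGG on the other strand).
Efna5: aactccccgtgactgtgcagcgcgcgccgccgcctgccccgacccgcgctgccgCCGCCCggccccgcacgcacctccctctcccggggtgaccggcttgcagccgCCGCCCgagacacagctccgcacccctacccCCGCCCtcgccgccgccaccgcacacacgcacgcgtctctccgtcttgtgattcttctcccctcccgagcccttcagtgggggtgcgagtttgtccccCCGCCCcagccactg
Efnb2: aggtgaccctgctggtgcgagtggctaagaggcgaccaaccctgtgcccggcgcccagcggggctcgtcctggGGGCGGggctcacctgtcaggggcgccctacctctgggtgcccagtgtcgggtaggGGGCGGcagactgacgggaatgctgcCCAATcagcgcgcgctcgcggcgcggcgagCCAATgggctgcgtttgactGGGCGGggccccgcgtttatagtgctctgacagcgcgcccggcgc
Both promoters are rich in G and C, with 74.8% in Efna5 and 72.0% in Efnb2 against a median of 52.4% over 32851 mouse promoters of the same length. Efna5 has 4 GC boxes and no CCAAT box. Efnb2 has 3 GC boxes and 2 CCAAT boxes. A GC box occurs in 32.7% of all these promoters and a CCAAT box in 33.8%. Neither promoter holds a cyclic AMP response element (TGACGTCA, in 1.55% of promoters) or the E-box CACGTG (6.02%), and TATAAA (12.4%, either strand) is matched once in Efnb2 and not in Efna5. RefSeq promoters were matched for 7 of the 8 genes, all but Efnb3. A match of letters is a description of the window and not of a factor's binding.

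Per exonic length, 2 ligands made up most of the family's RNA. Efnb3, which binds EphB receptors and EphA4 and is known from hippocampal synapses, had the highest level, with a median of 78.5 RPKM (counts scaled to library size and exonic length) over the 17 libraries (58.2 to 91.5). Efna3, known in the hippocampus from astrocytes, as a partner of EphA4 on dendritic spines, followed with a median of 43.6 RPKM (38.6 to 64.7). The 2 medians were 53.9% and 30.0% of the sum of the 8 medians, and Efnb3 was above Efna3 in 16 of 17 libraries, although their ranges overlapped.

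Efna2, which helps to lay out topographic maps of axons, had a median of 10.2 RPKM (8.49 to 13.1), and its range overlapped neither that of Efna3 above it nor that of Efnb2 below it. Efnb2, best known as a marker of arteries and also made by neurons, had a median of 5.40 RPKM (3.82 to 7.55). Efnb1, whose mutation in people causes craniofrontonasal syndrome, had 4.11 RPKM (3.34 to 5.72). The ranges of Efnb2 and Efnb1 overlapped, and Efnb2 was the higher in 14 of 17 libraries.

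Efna1 had a median of 2.41 RPKM (0.575 to 3.45), and Efna5, a repellent guidance cue for growing axons, one of 1.05 RPKM (0.448 to 1.62). Efna4 was the lowest, with a median of 0.368 RPKM (0.0548 to 0.841) and 5 to 66 counts per library over all 20 libraries, so its differences are poorly resolved. Neighboring ranges overlapped from Efnb1 down to Efna4, although Efnb1 was above Efna1 and Efna5 above Efna4 in 17 of 17 libraries, and Efna1 above Efna5 in 16. Efna5 rests on 99 to 553 counts and Efna1 on 59 to 389, against 7784 to 19293 for Efnb3. All 8 genes passed the filter on low counts in every comparison.

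**Figure D1:**
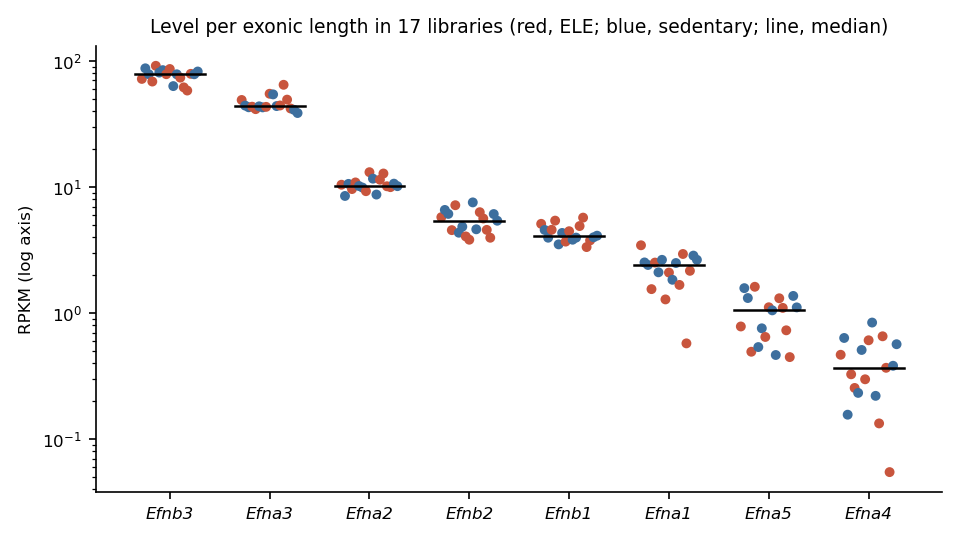
Level of each ephrin ligand gene in RPKM (vertical log axis) in the 17 libraries, with genes ordered by median (black line), ELE libraries in red and sedentary libraries in blue. The medians run from 78.5 RPKM for Efnb3 to 0.368 RPKM for Efna4, and red and blue points are mixed within each gene.

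In the 5 SIT libraries compared by the study Efna5 and Efnb2 were lower in ELE mice, and the log2 fold changes of the other 6 ligands were smaller. Efna5 stood at 3.16, 2.61 and 4.48 CPM in the 3 ELE libraries and at 6.36 and 5.31 CPM in the 2 sedentary libraries. All ELE values were below both sedentary values, with means of 3.42 and 5.83 CPM and a log2 fold change of -0.77 (SE 0.29). In bulk libraries such as these, fewer cells that make a transcript and less transcript per cell cannot be told apart.

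Efnb2 showed a smaller difference of the same sign. It stood at 39.5, 27.8 and 26.2 CPM in the ELE libraries and at 45.1 and 41.9 CPM in the sedentary libraries. The groups did not overlap, with means of 31.2 and 43.5 CPM and a log2 fold change of -0.48 (SE 0.17).

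By the rule of the study, an unadjusted p under 0.05 and a log2 fold change beyond 0.39 in either direction, 2 of the 8 ligands were called lower and 0 higher, where 2.11% of all genes tested were called lower and 3.65% in either direction. The family was chosen by these SIT fold changes, so the counts describe them and test nothing. Efnb2 was the called gene nearest the fold threshold, and the largest differences among the 6 others were those of Efna4 (0.21, SE 0.82) and Efna2 (0.20, SE 0.19). Non-overlap of the groups, met by Efna5 and Efnb2, was met by 22.1% of all genes in these small groups. The median log2 fold change of the 8 ligands was -0.01, against 0.00 over all genes.

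With all 8 SIT libraries, the differences of Efna5 and Efnb2 were larger. ELE mouse NT6.304 had 2.69 CPM of Efna5, and the sedentary pair of NT7.2.3 and NT7.2.4 had 9.08 and 9.90 CPM. These 3 values widened the gap, and the log2 fold change of Efna5 became -1.25 (SE 0.28). Efnb2 stood at 20.8 CPM in NT6.304 and at 43.9 and 54.2 CPM in NT7.2.3 and NT7.2.4, which gave -0.70 (SE 0.19). With each of the 8 libraries left out in turn, the values ran from -1.44 to -1.10 for Efna5 and from -0.90 to -0.58 for Efnb2, as a description of the libraries by which the genes were chosen. NT7.2.3 and NT7.2.4 also stood above the other 18 libraries in markers of several cell types, with microglial sums of 157 and 167 CPM (2.35 to 8.20 in the others), meningeal fibroblast sums of 86.5 and 80.5 CPM (10.3 to 49.995), mural cell sums of 41.4 and 41.2 CPM (13.4 to 36.4) and oligodendrocyte sums of 4091 and 4679 CPM (2198 to 3624). Their excitatory neuron markers, at 9506 and 9561 CPM, lay below the others (10271 to 13409), as did their dentate granule cell markers, at 416 and 385 CPM (417 to 678 in the others). The part of these markers in the larger differences was not tested.

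Efna3 was also called with all 8 libraries, in the opposite direction (log2 fold change 0.47, SE 0.18). It stood at 119, 105, 134 and 194 CPM in the ELE libraries and at 108, 104, 86.9 and 98.0 CPM in the sedentary libraries. The groups overlapped at 105 and 108 CPM, and NT6.304, the library set aside, held the highest value. Without NT6.304 Efna3 was not called (0.26), nor without NT7.2.3 (0.41), and Efna2 was called without NT6.306 or TG7.4.1 (0.46 in both). In the fit of all 8 2 of 8 ligands were called lower and 3 in either direction, with 5.41% and 7.70% of all genes, and the groups did not overlap for Efna5 and Efnb2, as for 4.57% of genes.

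The exercise groups of the SIT libraries also differed by mouse number and by markers. The TG7.4 mice were all ELE and the NT7.2 mice all sedentary, so these series of mice and exercise cannot be told apart in them, while the NT6 mice held both groups. Within the 4 NT6 mice, Efna5 had a log2 fold change of -1.01 (SE 0.29) and Efnb2 one of -0.54 (SE 0.31), which no longer met the rule of the study. In the same mice Efna1 was at 0.62 (SE 0.25), Efna3 at 0.55 (SE 0.24) and Efnb3 at -0.48 (SE 0.21), each larger than Efnb2 relative to its SE. These values are a description, since 3 of these 4 libraries are among those by which the genes were chosen. Choroid plexus markers summed to 128 to 572 CPM in the 3 ELE libraries and 582 to 666 CPM in the 2 sedentary libraries, with 3 of the 5 genes lower in every ELE library, and inhibitory neuron markers to 63.4 to 74.1 CPM and 74.4 to 75.0 CPM, with 2 of 5 lower. Dentate granule cell markers overlapped in sum (550 to 678 and 462 to 586 CPM), with 3 of 5 genes higher in every ELE library, and so did meningeal fibroblast markers (24.7 to 46.4 and 43.9 to 48.2 CPM), with 2 of 5 lower. The part of these differences in the values of Efna5 and Efnb2 was not tested.

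The SIT differences of Efna5 and Efnb2 also depended on single libraries. Efna5 was not called without NT6.303 (-0.72), NT6.305 (-0.64) or TG7.4.1 (-0.61), and Efnb2 was not called without NT6.305 (-0.43), TG7.4.1 (-0.40) or TG7.4.2 (-0.38). The sign stayed negative in every one of these fits.

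**Figure D2:**
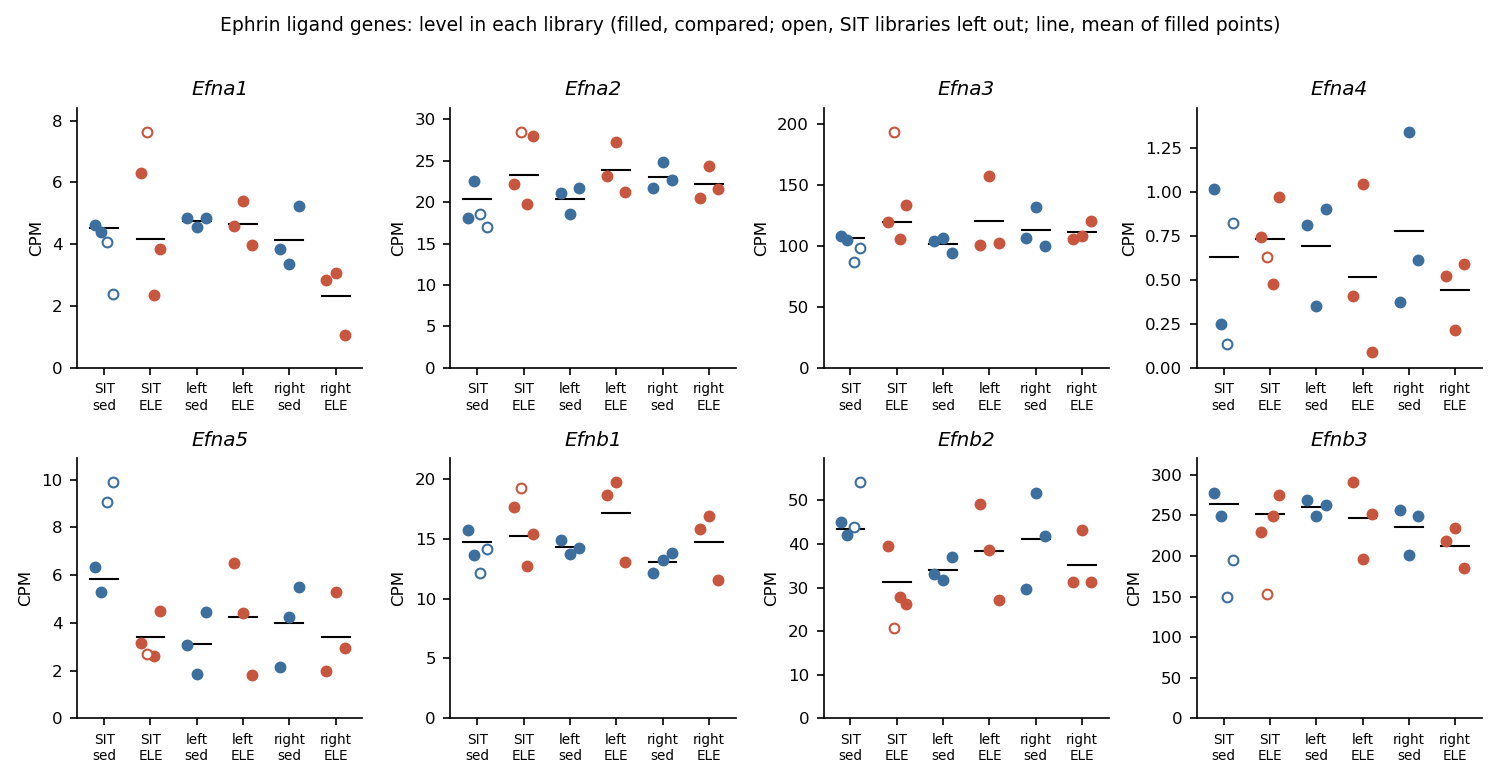
Level of each ephrin ligand gene in CPM (vertical axes start at 0) in every library, by isolation, hemisphere and exercise (sed, sedentary, blue; ELE, red). Filled points are the compared libraries, open points the 3 SIT libraries set aside and lines the mean of the filled points. For Efna5 and Efnb2 the SIT ELE points lie below the SIT sedentary points, while the left and right groups overlap.

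In the left hippocampus no ligand was called with all 6 libraries. Efna5 stood at 6.52, 4.43 and 1.80 CPM in the ELE libraries and at 3.05, 1.88 and 4.48 CPM in the sedentary libraries. The ELE group held both the highest and the lowest value, and its mean was the higher, with a log2 fold change of 0.45 (SE 0.47). Efnb2 stood at 49.2, 38.6 and 27.1 CPM in ELE and at 33.2, 31.7 and 37.0 CPM in sedentary libraries. These groups overlapped too, with a log2 fold change of 0.18 (SE 0.20). Without TG7.3.2, the ELE library with the most Efna5 and Efnb2, the 2 values turned slightly negative, to -0.025 and -0.062.

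The remaining left differences lay between -0.44 (Efna4, SE 0.79) and 0.27 (Efnb1, SE 0.16). Efnb1 was called without TG9.2.2, at 0.43, and ranged from 0.17 to 0.43 with 1 library left out. With edgeR's quasi-likelihood test, the adjusted p of the 8 ligands was between 0.960 and 0.992. Of all genes 2.07% were called in either direction, and the groups did not overlap for 10.7% of genes and for 0 of the 8 ligands. By edgeR 0 genes of the whole table passed an adjusted p of 0.05, 699 had an unadjusted p under 0.05, and DESeq2 gave 3 genes past the adjusted threshold.

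In the right hippocampus Efna1, a ligand best known from blood vessels and tumors, was the 1 ligand called, and it was lower in ELE mice. It stood at 2.83, 3.06 and 1.05 CPM in the ELE libraries and at 3.85, 3.36 and 5.23 CPM in the sedentary libraries. Every ELE value was below every sedentary value, with means of 2.32 and 4.15 CPM and a log2 fold change of -0.84 (SE 0.37). By edgeR's quasi-likelihood test over all genes, the unadjusted p was 0.0496 and the adjusted p 0.9998. A two-sided exact permutation test on log2 CPM gave 0.1, the smallest p that 3 against 3 libraries allow.

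That call did not hold under all settings. Efna1 was called in 5 of 11 alternatives, and without TG9.2.1, the lowest library, the log2 fold change was -0.50. This 1 call among 8 ligands stands beside 1.97% of all genes called, and the groups did not overlap for 7.66% of genes. Choroid plexus markers summed to 17.3 to 43.0 CPM in the right ELE libraries and 35.1 to 1156 CPM in the right sedentary libraries, with 3 of 5 genes lower in every ELE library. Microglial markers summed to 2.59 to 2.88 CPM in the right ELE and 2.91 to 4.01 CPM in the right sedentary libraries, with 1 of 5 genes lower in every ELE library. The part of these cells in the Efna1 values was not tested.

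Efna5 and Efnb2 did not separate the groups on the right. Efna5 stood at 1.99, 5.28 and 2.94 CPM in ELE and at 2.17, 4.24 and 5.52 CPM in sedentary libraries. The groups overlapped over nearly their whole range, with a log2 fold change of -0.21 (SE 0.40). Efnb2 stood at 31.2, 43.3 and 31.3 CPM in ELE and at 29.8, 51.8 and 41.8 CPM in sedentary libraries, with a log2 fold change of -0.22 (SE 0.20). The adjusted p was 0.9998 for both by edgeR's quasi-likelihood test. Without TG7.3.3 Efnb2 had a log2 fold change of -0.40 and was called, and without TG7.3.1 or TG9.2.3 that of Efna5 turned positive (0.056 and 0.099). Among the other ligands on the right, Efna4 was at -0.81 and not called. The rest lay between -0.15 (Efnb3) and 0.18 (Efnb1).

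**Figure D3:**
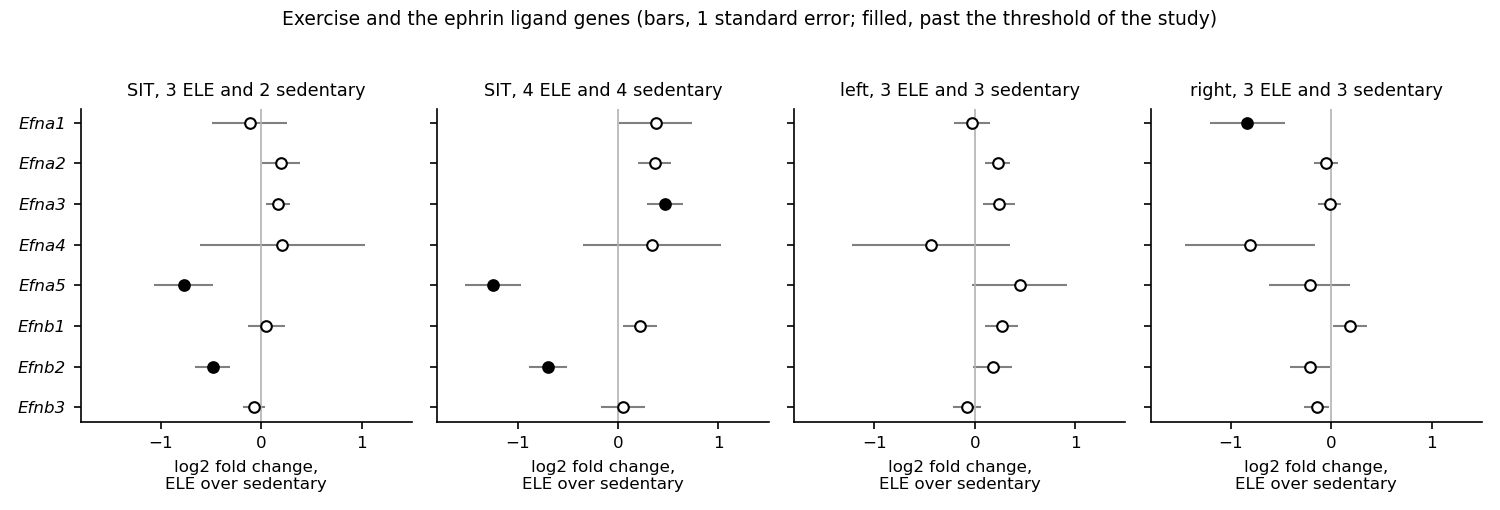
Log2 fold change of ELE over sedentary (horizontal axes) for each ephrin ligand gene in 4 comparisons, with bars of 1 standard error and filled points for genes past the threshold of the study. Efna5 and Efnb2 are at -0.77 and -0.48 in the SIT libraries and at 0.45 and 0.18 on the left, and Efna1 is at -0.84 on the right.

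Over the 12 separately isolated libraries, with hemisphere in the model, 0 of 8 ligands were called against 1.97% of genes, and 0 had an unadjusted p under 0.05 by edgeR's quasi-likelihood test or were called by DESeq2. Efna5 had a log2 fold change of 0.12 (SE 0.35) and Efnb2 one of -0.02 (SE 0.16). Neither sign was kept when 1 library was left out, with ranges of -0.13 to 0.29 and -0.15 to 0.089. Efnb1 had the lowest p of the 8, at 0.22 (SE 0.12, unadjusted p 0.0741 and adjusted p 0.911 by edgeR's quasi-likelihood test), with means of 15.9 CPM in ELE and 13.6 CPM in sedentary libraries. Efna1, at -0.43 (SE 0.24), was beyond the fold threshold but not past that on p (unadjusted p 0.0989, with the same adjusted p by edgeR). The low Efna4 had a larger difference (-0.63, and -1.08 to -0.32 with 1 library left out), which was not called either.

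The effect of exercise was not shown to differ between the hemispheres for any ligand. In the test of the interaction 0 of 8 ligands were called against 2.20% of genes, and all 8 differences, left minus right, were above 0, with a median of 0.33 against 0.01 over all genes. The largest was that of Efna1 (0.81, SE 0.45, unadjusted p 0.0940 by edgeR's quasi-likelihood test). The 8 genes share the same libraries and some vary together, so the 8 signs are not independent. With 1 library left out, 6 to 8 of the differences were above 0, and those of Efna4 (-0.64 to 0.87), Efnb1 (-0.072 to 0.25) and Efnb3 (-0.078 to 0.22) changed sign.

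The hemisphere of each library was taken from the list of mice in the supplement of the study, by mouse number. The order of the deposited sample records, which was not used, would give the opposite sides. Between the hemispheres themselves, Efna1 was the 1 ligand called, and it was higher on the left. Efna1 stood at 3.96 to 5.39 CPM in the 6 left libraries (median 4.72) and at 1.05 to 5.23 CPM in the 6 right libraries (median 3.21). The ranges overlapped through 1 right library, TG9.2.3, with means of 4.70 and 3.23 CPM. The log2 fold change, left over right, was 0.60 (SE 0.24), the unadjusted p 0.0272 and the adjusted p 0.9999 by edgeR's quasi-likelihood test, and the two-sided exact permutation p 0.0216. Of all genes 1.14% were called. With 1 library left out the value ran from 0.40 to 0.73, and without TG9.1.4 Efna1 was not called (0.51). Efnb3 was at 0.18 (SE 0.10) in the same comparison, and the remaining ligands between -0.07 and 0.18.

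Many genes differed between the isolations, and 0 of the 8 ligands were called. The 2 sedentary SIT libraries came from NT6 mice and the 6 separate ones from TG7.3, TG9.1 and TG9.2 mice. Isolation, series of mice and the use of both hippocampi or of 1 thus cannot be told apart here. Between the 2 sedentary SIT and the 6 separately isolated sedentary libraries, 15.5% of all genes were called. An adjusted p under 0.05 by edgeR's quasi-likelihood test was reached by 13.6%. Of the 6 ligands besides Efna5 and Efnb2, 0 met either measure. Mean Efna5 was 5.83 CPM in the SIT and 3.55 CPM in the separate sedentary libraries, and mean Efnb2 43.5 and 37.5 CPM, with overlapping ranges. The 2 sedentary SIT libraries are also the ones by which these 2 genes were chosen, so no test is given for them. As a description, the log2 fold change, SIT over separate, was 0.72 for Efna5 (0.56 to 1.13 over 14 alternatives) and 0.23 for Efnb2. Efna5 met the rule of the study without TG9.1.1, TG9.2.3 or TG9.2.4. Inhibitory neuron markers were higher in the SIT libraries (74.4 to 75.0 CPM against 40.5 to 62.7 CPM, 4 of 5 genes), as were those of meningeal fibroblasts (43.9 to 48.2 against 18.1 to 37.1 CPM, 1 of 5) and of CA2 and CA3 pyramidal cells (204 to 208 against 179 to 199 CPM, 2 of 5). Astrocyte markers were lower (2007 to 2100 against 2493 to 5123 CPM, 4 of 5), as were those of mural cells (13.4 to 18.2 against 18.9 to 36.4 CPM, 4 of 5) and CA1 pyramidal cells (771 to 845 against 867 to 974 CPM, 1 of 5). These ranges are of summed levels, and the gene counts give the markers whose groups did not overlap. The share of all genes without overlap was not computed for groups of this size. The part of these markers in the isolation differences was not tested. The other 6 ligands lay between -0.20 (Efna4, SE 0.61) and 0.12 (Efnb1, SE 0.12).

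Across the 12 separately isolated libraries, from 12 different mice, Efna5 and Efnb2 varied together. The library with the least Efna5 (TG9.2.2, 1.80 CPM) also had the least Efnb2 (27.1 CPM). The library with the most Efna5 (TG7.3.2, 6.52 CPM) had the second highest Efnb2 (49.2 CPM), after TG9.1.1 (51.8 CPM). On log2 CPM, Pearson's r was 0.87 (permutation p 0.00039, adjusted over the 28 pairs of ligands 0.0109) and Spearman's rho 0.83 (permutation p 0.00111, adjusted 0.0311). Without the 2 libraries farthest from the median of Efna5, r was 0.84.

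Within hemispheres, r of Efna5 with Efnb2 was 0.95 over the 6 left libraries (exact permutation p 0.00278) and 0.83 over the 6 right libraries, where it did not pass 0.05 (exact permutation p 0.0750). After the mean of each of the 4 groups was removed, r was 0.88. Among 14030 genes, Efnb2 was the 9th most like Efna5 over these libraries, and Efna5 the 7th most like Efnb2. With the SIT libraries added, r was 0.74 over 17 and 0.75 over 20 libraries, as a description. With the total counts of a library, log2 CPM of Efna5 had an r of 0.48 (permutation p 0.113) and that of Efnb2 an r of 0.27 (permutation p 0.390).

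The same libraries differed in markers of hippocampal cell types, and Efna5 followed some of them. Its r with the summed level of 5 dentate granule cell markers was -0.85 (permutation p 0.00085, adjusted over 52 relations 0.0299) and rho -0.85 (permutation p 0.001, adjusted 0.0519). Without the 2 farthest libraries r was -0.89, and it was -0.76 on the left (exact permutation p 0.0861) and -0.96 on the right (exact permutation p 0.00972). Of the 5 markers 4 had an r below 0.

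With the 5 excitatory neuron markers, the r of Efna5 was -0.79 (permutation p 0.00278, adjusted 0.0361, rho -0.78, permutation p 0.00397, adjusted 0.0519), negative for 5 of 5. With 5 meningeal fibroblast markers it was 0.72 (permutation p 0.00779, adjusted 0.0739). Efnb2 had an r of -0.73 with the dentate granule cell markers (permutation p 0.00880, adjusted 0.0739) and of 0.70 with those of meningeal fibroblasts (permutation p 0.00995, adjusted 0.0739). Summed levels of the dentate granule cell markers ran from 417 to 551 CPM over the 12 libraries, and overlapped between ELE and sedentary groups in both hemispheres. The part of cell makeup in the shared variation of Efna5 and Efnb2 was not tested.

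**Figure D4:**
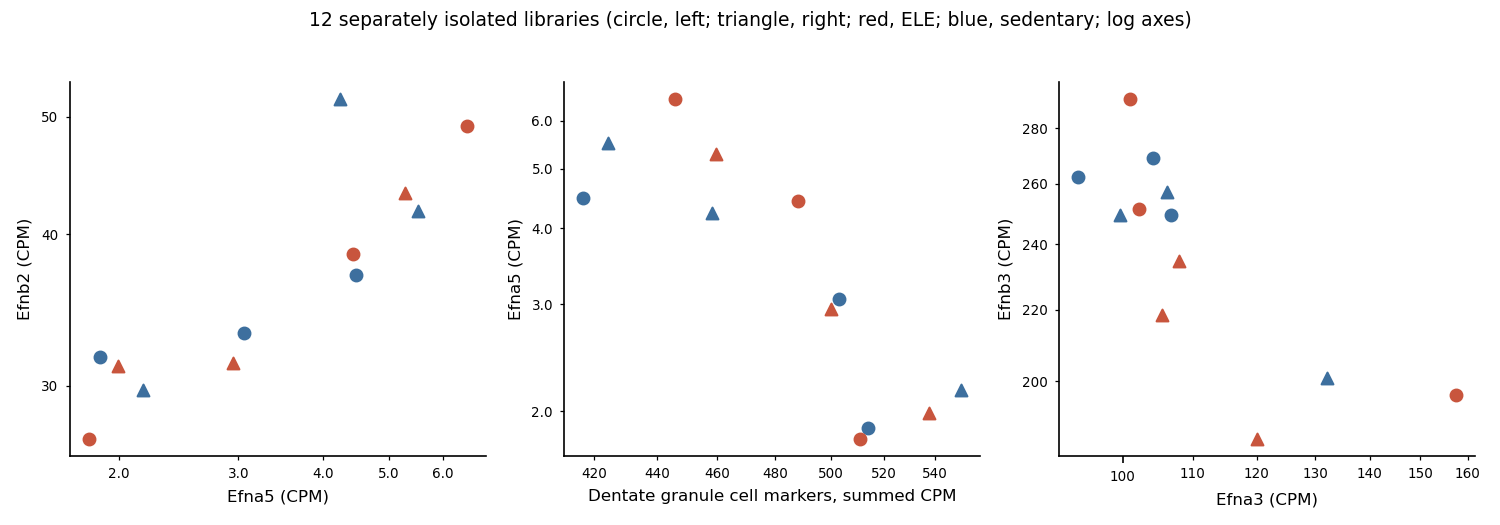
Levels in the 12 separately isolated libraries (log axes, CPM), with circles for left, triangles for right, red for ELE and blue for sedentary. Efnb2 rises with Efna5 (r 0.87), Efna5 falls with the summed dentate granule cell markers (r -0.85) and Efnb3 falls with Efna3 (r -0.78), and ELE and sedentary points are mixed in all 3 panels.

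The 2 most abundant ligands varied in opposite directions. Efna3 and Efnb3 had an r of -0.78 (permutation p 0.00236, adjusted 0.0330) and a rho of -0.79 (permutation p 0.00352, adjusted 0.0493), and r was -0.77 without the 2 farthest libraries. It was -0.91 on the left (exact permutation p 0.0542) and -0.78 on the right (exact permutation p 0.0708). The 3 libraries with the most Efna3, those of TG9.1.4 (157 CPM), TG9.1.1 (132 CPM) and TG9.2.1 (120 CPM), were the 3 with the least Efnb3 (196, 201 and 185 CPM). Among 14030 genes, counted from the most negative r, Efnb3 was the 494th for Efna3, and Efna3 the 480th for Efnb3. With the SIT libraries added, r was -0.59 over 17 and -0.38 over 20 libraries, as a description.

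Summed astrocyte markers varied with both of these ligands over the same libraries. With 5 such markers, r was 0.83 for Efna3 (permutation p 0.00182, adjusted 0.0315), but rho was 0.52 (permutation p 0.0885, adjusted 0.383) and r without the 2 farthest libraries 0.55. For Efnb3 r was -0.84 (permutation p 0.00115, adjusted 0.0299) and rho -0.64 (permutation p 0.0299, adjusted 0.195). The single markers were split, 3 above and 2 below 0 for Efna3, and 2 above and 3 below 0 for Efnb3. Inhibitory neuron markers also varied with both ligands. For Efna3 r was 0.57 (permutation p 0.0467, adjusted 0.221) and rho 0.69 (permutation p 0.0155, adjusted 0.134). For Efnb3 r was -0.64 (permutation p 0.0282, adjusted 0.163) and rho -0.68 (permutation p 0.0185, adjusted 0.137). With microglial markers, r of Efna3 was 0.72 (permutation p 0.0194, adjusted 0.126) and rho 0.27. The part of RNA of these cells in the 2 ligands was not tested. Of the 28 pairs, those of Efna5 with Efnb2 and of Efna3 with Efnb3 were the 2 with an adjusted p under 0.05 for both coefficients.

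By likeness over the 17 libraries, the genes nearest to Efna5 included Rab3b (r 0.91), Camk2d (0.88), Gpr101 (0.88) and Gabra3 (0.86). Rab3b encodes a small GTPase of synaptic vesicles, Camk2d a calcium/calmodulin-dependent kinase subunit and Gabra3 a GABA-A receptor subunit. For Efnb2 the nearest 5 were Dusp26 (r 0.86), Atp2b4 (0.83), Pcgf2 (0.81), Camk2d (0.80) and Mir124-2hg (0.80), of which Atp2b4 encodes a plasma membrane calcium pump. The r values are over log2 CPM and are descriptions, since the libraries include the SIT libraries by which Efna5 and Efnb2 were chosen. With all 20 libraries, Rab3b, Camk2d and Gabra3 remained among the nearest 5 for Efna5, and 2 of the 5 genes for Efnb2.

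Of the receptors that bind these ligands, Epha4, which takes both A-type and B-type ephrins, had the highest level per length, with a median of 60.7 RPKM (44.5 to 76.8). Ephb6, a receptor whose kinase domain is inactive, followed with 20.6 RPKM (14.3 to 36.9) and Epha7 with 15.5 RPKM (10.6 to 19.8). In the left, right and combined comparisons and in those of the interaction and the hemispheres, 0 of the 14 Eph receptor genes were called, of which 13 passed the filter on low counts and 12 on the right, beside 2.07%, 1.97%, 1.97%, 2.20% and 1.14% of all genes, so that a count of 0 is near the background. Over both hemispheres, the log2 fold change was 0.10 (SE 0.10) for Epha4, 0.14 (SE 0.15) for Ephb6 and 0.17 (SE 0.07) for Epha7, the last with an adjusted p of 0.911 by edgeR's quasi-likelihood test.

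In the SIT libraries Epha7 was higher in ELE mice (0.54, SE 0.14) and Ephb4 lower (-1.33, SE 0.56), 2 of 13 receptors tested beside 3.65% of all genes called. Ephb4 was low, with a median of 0.483 RPKM (0.0822 to 0.651) over the 17 libraries. With all 8 SIT libraries 3 of 13 were called beside 7.70% of genes, Epha7 (0.56, SE 0.16) and Epha6 (0.50, SE 0.14) higher and Ephb4 (-1.51, SE 0.44) lower. Between the isolations 4 of 13 receptors were called beside 15.5% of all genes, all 4 lower in the SIT libraries. These were Epha6 (-0.62, SE 0.13, adjusted p 0.00929), Ephb2 (-0.51, SE 0.12, adjusted p 0.0143), Ephb1 (-0.42, SE 0.13, adjusted p 0.0518) and Epha8 (-0.62, SE 0.27, adjusted p 0.151), by edgeR's quasi-likelihood test.

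Of 38 genes for effectors and partners, proteins that act below ephrins and Eph receptors or cleave them, 0 were called on the left, on the right, over both, in the interaction or between hemispheres, beside the same 1.14% to 2.20% of all genes. In the SIT libraries 1 was called (3.65% of all genes), Grip2 (-0.89, SE 0.35), which encodes a PDZ scaffold protein that binds B-type ephrins. Grip2 had the lowest level of the 38, with a median of 0.317 RPKM (0.141 to 0.421) over the 17 libraries. With all 8 SIT libraries 3 were called (7.70% of all genes), all lower, Grip2 (-1.77, SE 0.52), Ptpn13 (-0.70, SE 0.25) and Rgs3 (-0.40, SE 0.17). Between the isolations 6 were called (15.5% of all genes), Cdc42 (0.41, SE 0.07) and Pick1 (0.39, SE 0.14) higher in the SIT libraries and Sipa1l1 (-0.65, SE 0.10), Rock1 (-0.59, SE 0.16), Ptpn13 (-0.42, SE 0.17) and Abl2 (-0.39, SE 0.08) lower.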

How the data were processed

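The authors checked reads with FastQC 0.11.9, aligned them to GRCm38 with STAR 2.7.3a, removed duplicates with Picard 1.87, counted reads on the exons of each gene by strand with summarizeOverlaps (R 4.1.0), and deposited whole-number counts without normalization. Removing duplicates can lower the counts of abundant genes. Columns are named by mouse number, and the study's list of mice gave each its condition, isolation and hemisphere. Taken so, the right libraries matched the mean normalized counts of 358 of 358 genes listed for that side and the left libraries 2 (tolerance 0.1%). The 24 columns of a wild-type table could not be matched to samples and were not used, and the CUT&RUN part of the study is outside what was analysed. The SIT libraries that the study compared were identified among 24 subsets from mean normalized counts in its supplement.

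Counts were filtered (filterByExpr), scaled by TMM and tested with edgeR 4.0.16 (quasi-likelihood, R 4.3.3), fitting only the groups compared. The standard error is the absolute log2 fold change over the square root of F. P-values were adjusted by Benjamini-Hochberg over all genes tested. CPM used TMM factors over 20 libraries, RPKM the exonic length, and correlations log2(CPM + 0.5) with 100000 two-sided permutations, or exact ones for 6 libraries. Likeness was ranked over genes with a median of at least 1 CPM. Libraries of a group differed by more than counting error (chi-square per gene 20.2 to 463 over 24 pairs). The steps were tested on simulated counts. DESeq2 1.42.0, RLE factors, no filter, a fold threshold of 1.3, other sets of libraries, a replicate block and leaving out each library were tried.

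The members, gene lists and tests were chosen with earlier results of these data known. All 8 ligands were named, with the 3 receptors highest in RPKM, any receptor or effector called in separate isolations, and the 5 genes most like Efna5 and Efnb2, of which 1 is not reported here. Receptors and effectors named for the SIT and isolation comparisons were added after their values were seen, as were the marker correlations and the pair of Efna3 and Efnb3.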

Additional observations from a re-analysis of the deposited data

How the results depend on the processing

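At the study's threshold, 665 genes were called in the SIT comparison, 1350 with all 8 SIT libraries and 1179 within the NT6 mice. Without the filter on low counts the calls were 691 on the left, 715 on the right, 961 over both, 1041 for the interaction and 663 between hemispheres, against 367, 347, 360, 414 and 208 with it. When each library was left out in turn, calls ranged from 355 to 1971 in the SIT comparison (leaving libraries out of the fit of all 8 was added after seeing the data), 220 to 945 on the left, 308 to 643 on the right, 294 to 589 over both, 354 to 718 for the interaction, 194 to 437 between hemispheres and 2708 to 3375 between isolations (2930 with all). In the SIT fit of 5 libraries, leaving out NT6.305 gave 355 calls and TG7.4.2 1086. A lone sedentary library is there assumed to vary like the ELE libraries.

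With 1 library left out, the difference of 5 of the 8 ligands changed sign on the left, that of Efna1 (-0.14 to 0.077), Efna4 (-1.44 to 0.063), Efna5 (-0.025 to 0.81), Efnb2 (-0.062 to 0.38) and Efnb3 (-0.23 to 0.071). On the right 3 did, Efna2 (-0.13 to 0.00093), Efna3 (-0.097 to 0.10) and Efna5 (-0.69 to 0.099, and 0.056 without TG7.3.1). Over both hemispheres 3 did (Efna3, Efna5, Efnb2), in the interaction 3 (Efna4, Efnb1, Efnb3), between hemispheres 5 (Efna2, Efna3, Efna4, Efna5, Efnb2), between isolations 4 (Efna1, Efna2, Efna3, Efna4) and in the SIT comparison 4 (Efna1, Efna4, Efnb1, Efnb3). Among the other alternatives, Efna1 and Efnb3 changed sign with all 8 SIT libraries (0.37 and 0.052), and between isolations with all 4 sedentary SIT libraries (-0.18 and -0.17). Efna1 also did so within the NT6 mice (0.62), and Efna5, near 0 between hemispheres, with the replicate block. Efna1 on the right ranged from -1.10 to -0.50 and was not called with RLE factors (-0.84) or without TG7.3.1, TG7.3.3, TG9.2.1 or TG9.2.3. For the interaction, Efna1 was called without TG9.1.3 (1.07). The r of Efna5 with Efnb2 stayed between 0.84 and 0.95, and that of Efna3 with Efnb3 between -0.82 and -0.74 (added after seeing the data). The cause of these changes was not tested.

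With the leading part of each mouse number taken as a replicate block, 314 genes were called on the left, 301 on the right, 427 over both, 415 for the interaction and 224 between hemispheres. Efna1 on the right (-0.92) was then not called. Same-numbered mice correlated between 0.04 and 0.25 on the left and between -0.09 and 0.29 on the right, not above 0.1 for every pair, so the number was not taken to pair the mice.

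Low depth limits Efna4 most, with 5 to 66 counts, and with 2 to 4 mice per group a difference missed here is not shown to be absent.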

Other observations

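Genes most like the 2 abundant ligands were also ranked, after the values had been seen and as a description. Over the 17 libraries, those nearest to Efna3 were Cnn3 (r 0.90), Chga (0.89), Ssbp3 (0.88), Npy (0.88) and Midn (0.86). Npy, which encodes neuropeptide Y, ran from 0.755 to 301 CPM and Chga, which encodes a protein of dense-core vesicles, from 93.6 to 329 CPM, while Efna3 ran from 94.0 to 157 CPM. Those nearest to Efnb3 were Mapk3 (r 0.93), Tspan33 (0.93), Faim2 (0.90), Dhrs3 (0.88) and Rab26 (0.88). Mapk3, which encodes the kinase ERK1, ran from 173 to 335 CPM in these libraries. With all 20 libraries, 0 of the 5 genes for Efna3 remained among its nearest 5 and 1 of the 5 for Efnb3, Mapk3.

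The SIT library of ELE mouse NT6.304, set aside by the study, had the highest Efna3 of all 20 libraries (194 CPM) and low Efnb3 (153 CPM). Efna3 made up 51.4% of the summed ligand RPKM there and Efnb3 31.0%, the 1 library besides TG9.1.4 (41.7% and 39.8%) in which Efna3 was the higher. The same library held the highest Efna1 (7.65 CPM) and the lowest Efnb2 (20.8 CPM) of the 20.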
